A study of Homo sapiens with 4 samples.

Results

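The replication-dependent histone genes were examined in the RNA of extracellular vesicles (EVs) released by PC3 cells, a prostate cancer line derived from a bone metastasis. They were taken as the protein-coding genes whose symbols place them in the H1, H2A, H2B, H3 or H4 gene clusters, and 69 genes in GENCODE fitted this description. Of these, 65 had a row in the count tables under their Ensembl identifier, among 19629 protein-coding genes and 58051 gene rows in all. H2AC18, H2AC19, H3C2 and H3C3 had no row under their identifier, so they have no read values here and enter only the counts of sequence features, which are over all 69 genes.

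The EVs came from PC3 cells grown in medium with exosome-free serum, with no treatment named, and were isolated on affinity and size-exclusion columns. Stranded total RNA libraries were made from 2 biological replicates of this single condition, so no comparison between conditions could be made, and the 2 small RNA libraries of the series were not used here. Both libraries carry the same preparation name in their titles, and they were told apart by their replicate numbers and descriptions, so each SD with n = 2 rests on these labels. The line is 1 established cell line and stands for no other prostate tumour. The counts of replicate 1, on genes and unassigned together, summed to 19563744 entries, but only 2.50% were on a gene. For replicate 2 these values were 22042233 and 2.16%. These sums may differ from the reads sequenced, as how mates and multi-aligned reads were entered was not given. A further 7109620 and 7801156 lay on no annotated gene, in that order. Whether genomic DNA or other background added to the gene counts was not tested. In total 489170 reads were counted on genes in replicate 1 and 475942 in replicate 2, of which 292993 and 276226 were on protein-coding genes. One read therefore equalled 2.04 CPM in replicate 1 and 2.10 CPM in replicate 2, where CPM is the count scaled to 1000000 reads counted on genes. Epithelial and mesenchymal markers of the line were present, with 966 and 1088 reads for KRT8, 94 and 87 for KRT18 and 130 and 87 for VIM in replicates 1 and 2. KLK3, which this line lacks, had 0 reads in both, as had the blood, serum and leukocyte genes HBB, HBA1, ALB and PTPRC.

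Histones are the proteins around which DNA is wrapped. H2A, H2B, H3 and H4 form the core of the nucleosome, and H1 binds the linker DNA between nucleosomes. The replication-dependent genes are expressed in S phase, when newly made DNA has to be packaged, and they lie in clusters as many similar copies, mostly without introns. Their mRNAs end not in a poly(A) tail but in a conserved stem-loop, which is bound by the stem-loop binding protein SLBP and which makes these mRNAs largely invisible to libraries selected on poly(A).

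The stem-loop is shown for 8 members that the values below turn on, among them the highest of each class by CPM, and these cover 6 of the 10 forms found. The sequences are from GRCh38, on the transcribed strand. The capitals mark the 16 bases of the stem-loop, and the lower case bases flank it.
H1-4, chr6:26157090-26157115, plus strand: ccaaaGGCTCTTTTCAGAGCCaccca
H2BC15, chr6:27839085-27839110, plus strand: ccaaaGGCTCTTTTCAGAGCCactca
H2AC21, chr1:149887469-149887493, minus strand: ccaaaGGCTCTTTTAAGAGCCacca
H2AC20, chr1:149887386-149887411, plus strand: ccaaaGGCTCTTTTTAGAGCCaccca
H2AC15, chr6:27837880-27837905, minus strand: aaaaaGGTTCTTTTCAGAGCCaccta
H3C10, chr6:27810511-27810536, plus strand: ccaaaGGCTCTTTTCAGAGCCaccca
H4C5, chr6:26204996-26205021, plus strand: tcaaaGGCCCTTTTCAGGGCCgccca
H4C9, chr6:27139649-27139674, plus strand: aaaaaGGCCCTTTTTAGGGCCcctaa

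The histone stem-loop was found in the last 100 bases of an annotated transcript in 68 of the 69 members, against 0.357% of all protein-coding genes, or 70 of the 19629 in the count tables, of which 64 were members and 6 were not. The form printed for H1-4 was the most frequent, in 39 members of the H1, H2A, H2B and H3 classes. All 15 H4 genes carried a stem that begins GGCCC, as printed for H4C5, a form shared by 10 of them, and H4C9, a form shared by 4. The exception was H2BC21, whose annotated transcript runs on for 1729 bases past its stem-loop. The poly(A) signal AATAAA was present in the last 100 bases of an annotated transcript in 17 of the 69 members, against 77.6% of all protein-coding genes. Each signal was scored over all transcripts of a gene, so the stem-loop and AATAAA of a member can lie at the ends of different transcripts. The 26 printed bases of H1-4 were identical in H1-5, H2AC8, H2BC26, H3C10 and H3C2, and among these H1-4 had 212 and 177 reads while H1-5 had 0 in both replicates. Such a match is a description of the letters only. The 48 members in the tables with the stem-loop and no AATAAA held 72.0% ± 0.921 of the histone reads, and the 16 with both, in the same or different transcripts, held 25.4% ± 1.90 (SD, n = 2). Reads were counted per gene, so they cannot be assigned to the transcript that ends in the stem-loop. Members with over 1000 exon bases, where this matters most, held 26.8% ± 0.0474 of the histone reads (SD, n = 2).

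Histone genes took 855 reads in replicate 1 and 797 in replicate 2. This was 0.292% (95% Wilson interval 0.273 to 0.312%) and 0.289% (0.269 to 0.309%) of the protein-coding reads, a mean of 0.290% ± 0.00232 (SD, n = 2), so the summed share differed between the replicates by less than its counting error. Since PCR copies of a molecule are counted as separate reads, the intervals and floors given here allow for counting error alone. Counts were also mostly even, as given below, so the intervals are likely too narrow and the floors too low. The reads were spread over few members. The 2 highest held 37.9% ± 3.0 (SD, n = 2) of the histone reads, the 5 highest 57.1% ± 3.95 and the 10 highest 74.6% ± 1.86.

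At least 1 read in both replicates was found for 22 of the 65 members (33.8%), against 21.9% of all protein-coding genes. At least 1 read in either replicate was found for 34 members (52.3%), against 42.3%. Most histone genes are short, and among protein-coding genes with under 1000 exon bases only 5.67% had a read in both, against 15 of 49 members (30.6%) of that length. Another 7 members had reads only in replicate 1 and 5 only in replicate 2. The remaining 31 members had 0 reads in both. Of these, 27 had at least 90% of their 75-base windows unique in the genome. Where their exons share no bases with another gene on the same strand, the floor is 3 reads. A count of 0 then allows a level of up to 6.13 CPM in replicate 1 and 6.30 CPM in replicate 2. No such limit is given for H3C4, H2AC7, H2AC17 and H3C12, which share exon bases with another gene on the same strand. For H3C4 these are 486 of its 503 exon bases, and how reads in them were counted was not given. Nor is a limit given for H2AC14, H4C11, H4C14 and H4C15, whose sequence is mostly shared with other places in the genome.

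H1, the linker histones, was carried by 3 of its 6 members. H1-4 (ENSG00000168298, chr6:26156329-26157115) was the highest of all histone genes by CPM and by CPM per kb, with 212 reads in replicate 1 and 177 in replicate 2, or 403 CPM ± 43.5 (SD, n = 2). It ranked 91 of 19629 protein-coding genes by mean CPM and 23 by CPM per kb of exon, where it stood at 512. H1-2 had 34 reads in both replicates, or 70.5 CPM ± 1.37 (SD, n = 2), and was the most even of the abundant members. H1-3 had 50 reads in replicate 1 and 16 in replicate 2, or 67.9 CPM ± 48.5 (SD, n = 2), so its order against H1-2 was not set beyond this spread. H1-1, H1-5 and H1-6, the last a testis form, had 0 reads in both.

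H2A, which pairs with H2B in the nucleosome, had reads for 9 of 15 members. H2AC21 led the class with 47 and 42 reads, or 92.2 CPM ± 5.54 (SD, n = 2), and its exon shares 76 bases with BOLA1 on the opposite strand, which had 47 and 53 reads. The strand setting of the counting was not given, so reads in those bases cannot be told apart. H2AC11 had 18 and 30 reads, and H2AC20, the next in the order of CPM, had 34 and 13, with means of 49.9 CPM ± 18.6 and 48.4 CPM ± 29.8 (SD, n = 2) that did not differ beyond their spread. H2AC12 was nearly even, with 16 reads in replicate 1 and 18 in replicate 2. H2AC6 had 22 reads in replicate 1 and 4 in replicate 2, and H2AC25, on another part of chromosome 1, had 14 and 6. H2AC13 had 2 and 11 reads, H2AC15 had 10 and 0, and H2AC8 had 2 and 0. H2AC1, H2AC4, H2AC7, H2AC14, H2AC16 and H2AC17 had 0 reads in both.

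H2B had the most members with a read, 12 of 18. H2BC15 was second among all histone genes by CPM, with 130 reads in replicate 1 and 108 in replicate 2, or 246 CPM ± 27.5 (SD, n = 2). Its annotated exons span 4265 bases, far more than the coding part, so its level per kb of exon was 57.8 CPM, below the 167 of H2BC12. H2BC12 had 46 and 34 reads, H2BC17 had 48 and 12, and H2BC8 had 35 and 15. H2BC21, the member without a stem-loop at its annotated end, had 16 and 26 reads, close to each other beside those of H2BC17 or H2BC13. H2BC13 had 21 and 5 reads and H2BC4 had 4 and 3. The remaining members with reads were seen in 1 replicate each, H2BC11 with 17 reads and H2BC5 with 12 in replicate 2, and H2BC6 with 13, H2BC18 with 6 and H2BC26 with 6 in replicate 1. H2BC1, H2BC3, H2BC7, H2BC9, H2BC10 and H2BC14 had 0 reads in both.

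H3 had the fewest reads counted, with 34 in replicate 1 and 36 in replicate 2 over 11 members, though in replicate 1 H4 had only 35. H3 reads may be missed, as H3C2 and H3C3 had no row. H3C14 and H3C15 had no unique 75-base window, H3C13 had 37.0% unique, and H3C4 overlaps another gene on the same strand. H3C10 had 14 and 28 reads, or 43.7 CPM ± 21.4 (SD, n = 2), and H3C13 had 16 and 8. H3C14 and H3C15 had 2 reads each, in replicate 1 only, and H3C1, H3C4, H3C6, H3C7, H3C8, H3C11 and H3C12 had 0 in both. H4 differed most between the replicates. H4C9 had 29 reads in replicate 1 and 116 in replicate 2, or 152 CPM ± 130 (SD, n = 2), and H4C5 had 2 and 36. Together H4C9 and H4C5 held 31 of the 35 H4 reads of replicate 1 and 152 of the 178 of replicate 2. H4C8 had 4 and 10 reads, H4C16, the member on chromosome 12, had 0 and 12, and H4C3 and H4C12 had 2 each in replicate 2. H4C1, H4C2, H4C4, H4C6, H4C7, H4C11, H4C13, H4C14 and H4C15 had 0 reads in both.

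**Figure D1:**
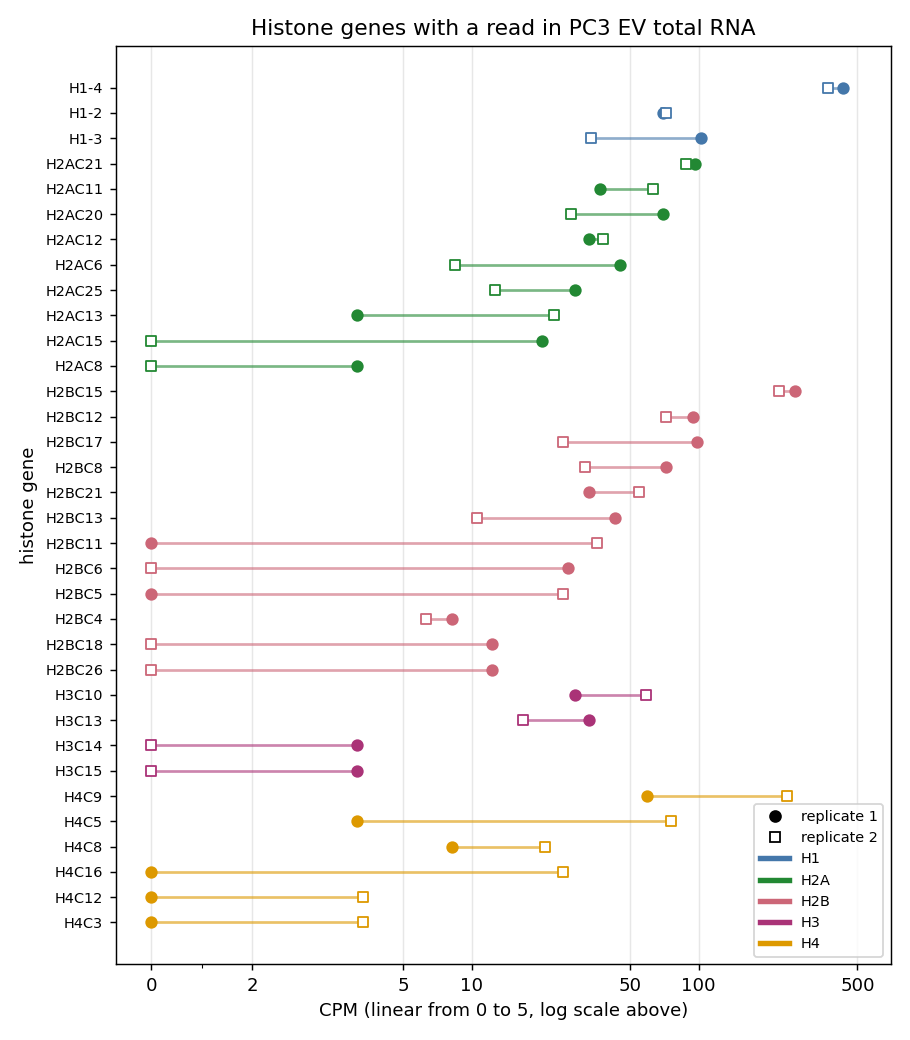
CPM of the 34 histone genes with a read, by class, with filled circles for replicate 1 and open squares for replicate 2 joined by a line (axis linear from 0 to 5 CPM and logarithmic above). H1-4 and H2BC15 are high and close in both replicates, while all 6 H4 genes with a read lie higher in replicate 2.

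By class, H2B held 33.6% ± 6.30 of the histone reads and H1 31.6% ± 4.34 (SD, n = 2), a difference within the spread. H2A held 17.4% ± 2.64, H4 13.2% ± 12.9 and H3 4.25% ± 0.382 (SD, n = 2). The H4 share was 4.09% in replicate 1 and 22.3% in replicate 2, and without H4C9 it was 0.726% and 9.10%. The H3 share lay below those of H1, H2A and H2B in both replicates, with the limits on counting H3 genes given above. Without H1-4, the H1 share was 10.6% and the H2B share 44%, so the place of H1 near the top rested on that gene, while H2B stayed highest and H3 lowest.

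**Figure D2:**
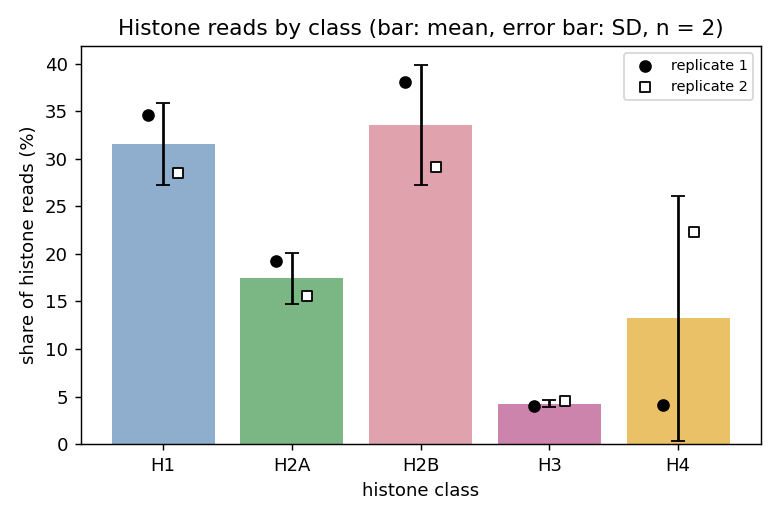
Share of histone reads (%) by class, with bars for the mean, error bars for the SD (n = 2), circles for replicate 1 and squares for replicate 2. H1 and H2B lie highest, and the H4 points are at 4.09% and 22.3%.

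The replicates were compared gene by gene with a two-sided exact binomial test of the counts against the library totals, which compares these libraries and not conditions. Of the 26 members with at least 10 reads summed, 15 (57.7%) differed beyond counting error, against 64.1% of all protein-coding genes tested, a share near the background. Of the 15, 8 were higher in replicate 1 and 7 in replicate 2. The smallest adjusted p values among the members were those of H4C9 (Benjamini-Hochberg adjusted p = 1.88e-12, exact binomial test), H4C5 (adjusted p = 2.76e-08, exact binomial test) and H2BC17 (adjusted p = 1.68e-05, exact binomial test). They depend on the number of reads as well as on the size of the difference. H1-4 (adjusted p = 0.191, exact binomial test), H2BC15 (adjusted p = 0.308) and H2AC21 (adjusted p = 0.802) did not pass. Counts were mostly even, 81.5% and 75% of the member values from 2 to 50 reads in replicates 1 and 2. Over all protein-coding genes the even shares were 76.4% and 73.7%. The exact test therefore takes too small an error. With the counts halved, 7 of 26 members passed, against 42.2% of all genes, and these were H4C9, H4C5, H1-3, H2BC17, H2BC11, H2BC5 and H4C16. Over the 34 members with a read, Spearman's rho between the replicates' CPM was 0.556, as a description across genes that share the same 2 libraries.

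The median level of all 65 members was 2.51 CPM per kb of exon (range 0 to 512), against 0 over all protein-coding genes. Within either replicate alone the members' median was 0 as well. Among genes of under 1000 exon bases with a read, the median was 82.3 CPM per kb over 22 members and 17.5 over the 93 other protein-coding genes. Of the 65 members, 5 ranked within the first 100 of all protein-coding genes by CPM per kb and 21 within the first 1000, and by mean CPM these numbers were 1 and 5.

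By position, the 32 members of the first chromosome 6 cluster held 378 and 309 reads and the 21 of the second 334 and 381. The 9 members at the main chromosome 1 cluster held 123 and 89 reads. In the clusters, H2A and H2B genes often lie head to head with a short stretch between them, and 12 such pairs were found, all H2A with H2B, 193 to 250 bases apart. Both genes had a read in 8 pairs, neither in 3, and only H2BC17 in the pair with H2AC17. Partners could differ in reads, but their exon lengths differ too. H2BC15 had 130 and 108 reads and its neighbour H2AC15 had 10 and 0, over 4265 and 496 exon bases. Per kb of exon they stood at 57.8 and 20.6 CPM. H2BC12 had 46 and 34 reads and H2AC12 16 and 18, or 167 and 77.2 CPM per kb. H2BC21 had 16 and 26 reads and H2AC20 34 and 13, or 19.6 and 98.0 CPM per kb.

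Members are alike in sequence, and the count tables list 45.5% of the entries of replicate 1 and 48.1% of those of replicate 2 as not aligned uniquely, apart from the gene counts. How the aligner marked such reads was not given. Between genes of a class with coding regions of equal length, identity had a median of 85.6% in H2A, 89.8% in H2B, 85.3% in H3 and 83.8% in H4. Of the 69 members, 42 had every 75-base window of their exons only once in the genome and 6 had none that was unique. The 10 members in the tables with under 50% unique windows held 28 and 21 reads. Of the 31 members at 0 reads, 27 had at least 90% unique windows. H2BC12, H2AC20 and H3C13 had reads with 61.0%, 82.1% and 37.0% of their windows unique, in that order. The values of the 10 members in the tables under 50%, which are H3C13, H3C14, H3C15, H4C12, H2AC13 and H2BC18 with reads and H2AC14, H4C11, H4C14 and H4C15 at 0, are uncertain for this reason. Over the 65 members, Spearman's rho of uniqueness with CPM per kb was -0.173, as a description. Members whose exons overlap no other gene held 90.3% ± 3.20 (SD, n = 2) of the histone reads.

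**Figure D3:**
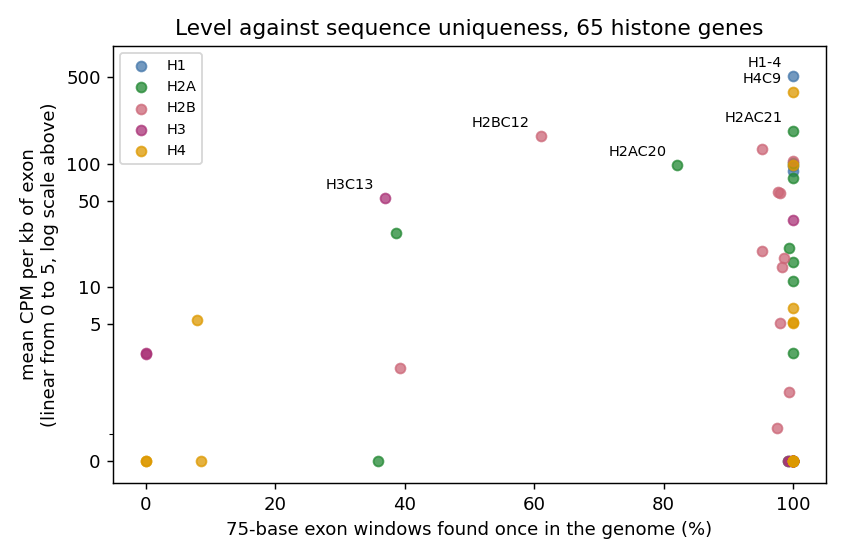
Mean CPM per kb of exon (linear from 0 to 5, logarithmic above) against the percentage of 75-base exon windows that occur once in the genome, for 65 histone genes coloured by class. Most members lie near 100% at every level from 0 to 512.

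Replacement histones are made outside S phase too, and their mRNAs are mostly polyadenylated. Of 12 such genes, 7 had a read in both replicates, beside 21.9% of all protein-coding genes, and the list took 412 and 331 reads. H3-3B, an H3.3 gene, had 123 and 96 reads. Per kb of exon its level was 36.9 CPM, beside 35 for H3C10 and 52.8 for H3C13. H1-10, a linker histone, had 68 and 66 reads. Its level per kb, 91.6 CPM, lay near the 96.4 of H1-2 and under the 512 of H1-4. H2AX, the variant phosphorylated at DNA breaks, had 42 and 61 reads, H2AZ1 had 40 and 8, MACROH2A1 had 10 and 24 and H3-3A had 22 and 2. The median of the list was 5.37 CPM per kb, against 2.51 for the members and 0 over all protein-coding genes.

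Of 25 genes for histone mRNA processing and decay, 11 had a read in both replicates, with a median of 1.67 CPM per kb. For this list and those below, the background over all protein-coding genes was 21.9% with a read in both and a median of 0. SLBP, which binds the stem-loop, had 65 and 47 reads, SRRT had 67 and 73, and LSM10, a subunit of the U7 particle that guides the cut, had 15 and 12. LSM11, its partner, had 12 and 0 reads. Of 16 histone chaperones, 7 had a read in both, with a median of 2.56 CPM per kb. CHAF1A, a subunit of the chromatin assembly factor, had 40 and 13 reads, ASF1B had 24 and 22 and NASP had 32 and 0. Of 23 S phase genes, 11 had a read in both, with a median of 2.43 CPM per kb. TYMS, for thymidylate synthesis, had 6 and 80 reads, the helicase subunit MCM2 had 77 and 10, and PCNA, the sliding clamp, had 0 and 20. Other S phase genes were closer between the replicates, with 20 and 20 reads for POLA1, 32 and 17 for MCM7 and 18 and 12 for FEN1. By the same exact binomial test, 4 of 7 tested replacement histones, 8 of 14 processing genes, 7 of 11 chaperones and 7 of 13 S phase genes differed between the replicates, beside 64.1% of all protein-coding genes tested. The even counts make the error too small here as well.

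**Figure D4:**
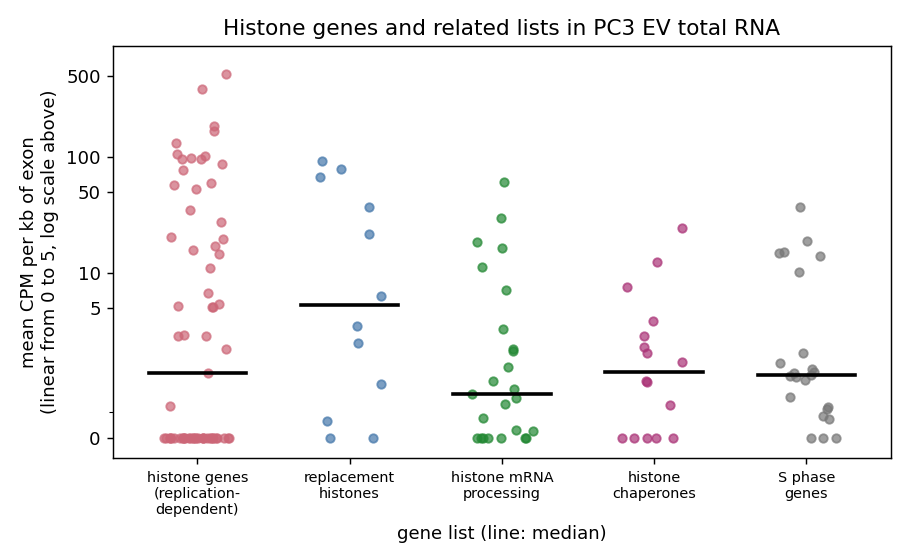
Mean CPM per kb of exon (linear from 0 to 5, logarithmic above) of each gene in 5 lists, with a line at the median. The replication-dependent histone genes reach 512 and have a median of 2.51, with 31 genes at 0.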

How the data were processed

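EV RNA of PC3 cells was sequenced by the authors on stranded total RNA libraries, 2 biological replicates, and mapped to GRCh38. The authors deposited raw counts per Ensembl gene from HTSeq. Versions, strand setting, annotation release and how the aligner marked multi-aligned reads are not given in the sources used here. Members and annotation came from GENCODE 44 (56948 of 58051 identifiers matched). CPM used all reads counted on genes. CPM per kb used the merged exon length of all annotated transcripts, which can lower the level and rank of genes with many transcripts. The stem-loop (16 bases) and AATAAA were searched on the transcribed strand in the last 100 bases of annotated transcripts. Windows of 36 and 75 bases were searched on both strands of the genome. Exact binomial tests with Benjamini-Hochberg adjustment (threshold 0.05) covered the protein-coding genes whose summed count reached 10. They were tried on simulated Poisson counts without an excess of even counts or extra spread between replicates. The simulation therefore cannot show their error in these data. Named genes were all members, overlapping genes, markers and examples from the lists, the last each with at least 10 reads summed. Other list genes that reached this minimum were not named and enter only the counts and medians. TMM factors came from edgeR 4.0.16 in R 4.3.3. Python 3.11.15, pandas 2.3.3, numpy 2.4.6, scipy 1.17.1 and matplotlib 3.10.9 were used. The members and lists were chosen with earlier results of these data known. The alternatives were other read minimums, denominators, weightings and scalings, and leaving out each replicate. Halved counts and a minimum of 2 reads were added after seeing the data. The small RNA libraries were left out. A marker and a gene of the replacement histone list are not reported here by name.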

Additional observations from a re-analysis of the deposited data

Results flagged for a closer look

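Histone pseudogenes, which were no members, had reads in 3 of 15 cases. H1-12P had 5 reads in replicate 1 and 32 in replicate 2, 37 in all. H2BC20P had 26 and 1, 27 in all, and H4C10P had 0 and 5, 5 in all. They are listed because they had reads outside the genes described above. H1-12P lay above the floor of 3 reads per library in both replicates, H2BC20P in replicate 1 and H4C10P in replicate 2, where it did so by 2 reads.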

How the results depend on the processing

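No paired analysis was possible because only a single condition was sequenced, so there are no groups to pair. The number of members identified, 22, was 34 with a read in either replicate, 14 with at least 10 reads in both, and 27 to 29 within a single replicate. The histone share of 0.290% was 0.171% of all gene counts, 0.461% without mitochondrial genes and RPS29, 0.222% without H1-4 and 0.262% for members without overlaps, and 0.289 to 0.292% within single replicates. Per kb of exon, the shares were 28.8% for H1, 22.4% for H2A, 24.3% for H2B and 20.4% for H4, so H1 then lay above H2B, and H4 was over 1.5 times its 13.2% of reads. Per kb of unique 75-base windows, the shares were 24.1% for H1, 22.3% for H2A, 26.1% for H2B, 6.51% for H3 and 21% for H4. Without H1-4 they were 10.6%, 22.8%, 44%, 5.55% and 17.1% in the same order. Within single replicates the shares ran from 28.5 to 34.6% for H1, 15.6 to 19.3% for H2A, 29.1 to 38% for H2B, 3.98 to 4.52% for H3 and 4.09 to 22.3% for H4. The 15 members that differed between replicates were 4 with at least 50 reads summed, where only 9 were tested (44.4%, against 54.9% of all genes at that setting), and 7 with counts halved. The median of 2.51 CPM per kb was 2.82 over unique 75-base windows, 2.75 over unique 36-base windows, 2.51 with TMM scaling and 0 within either replicate. The cause of the other changes was not tested. At 3 reads, levels under about 6.13 CPM could not be shown, and with mostly even counts this limit is likely too low.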
